A study of Mus musculus with 8 samples.

Results

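The unfolded protein response was followed through 10 genes that encode its sensors, transcription factors and targets: Eif2ak3, Ern1, Atf6, Atf4, Xbp1, Hspa5, Dnajb9, Herpud1, Ddit3 and Trib3. They were chosen by symbol from the 54532 genes in the count files, and each was matched to 1 Ensembl identifier. A second identifier for Ddit3 covers 105 exonic bases and had no count in any library. All 10 passed the filter on low counts. Gene counts came from bone marrow-derived macrophages (BMDMs), which were grown for 7 days in medium conditioned by L929 cells from the marrow of mice aged 6 to 8 weeks. The 8 libraries formed 4 groups of 2. WT BMDMs came from wild-type mice, and the other 3 groups all came from mice lacking Trex1, an exonuclease that degrades DNA in the cytosol. These were Trex1-KO, Trex1-KO+H151 and Trex1-KO+SN-011. H151 and SN-011 are small molecules that inhibit STING, the adaptor through which the cytosolic DNA sensor cGAS signals, and the study used them to ask whether a gene signature induced in Trex1-KO cells depended on STING. WT and Trex1-KO cells received the vehicle DMSO and the others received antagonist, for 12 h. H151 was given at 500 nM per the labels. They give no concentration for SN-011, which was the same per the methods of the study. The knockout is of the whole animal and the study used mice on a C57BL/6J background. The study describes the libraries of a group as independent experiments, but the labels do not say whether they came from separate mice or cultures, so p-values measure only the spread between these libraries.

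The endoplasmic reticulum (ER) folds secreted and membrane proteins, and unfolded protein in its lumen activates a set of sensors in its membrane. PERK (encoded by Eif2ak3) phosphorylates the initiation factor eIF2α, which lowers protein synthesis but favours translation of Atf4. IRE1α (Ern1) splices Xbp1 mRNA into the form that encodes an active transcription factor, and ATF6 moves to the Golgi, where it is cleaved to release another. Their targets are chaperones, degradation factors and, under lasting stress, the pro-apoptotic factor CHOP (Ddit3). Macrophages secrete much protein, and STING itself resides in the ER membrane before it is activated. Counts per gene measure mRNA level. They do not show splicing of Xbp1, translation of Atf4, cleavage of ATF6 or phosphorylation of eIF2α.

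The response elements that link these factors to their targets can be read in the promoters of 2 members, which are shown because Hspa5 and Herpud1 are the classical ER chaperone and degradation targets and had different values in the comparisons that follow. RefSeq windows of 300 bases (250 before the annotated start to 50 after it, build GRCm38.p6) were found for 9 of the 10 members, all except Atf6. Both strands were searched for the exact letters of the ER stress response element ERSE (CCAAT, a gap of 9 bases and CCACG), ERSE-II (ATTGG, a gap of 1 base and CCACG), the XBP1-type element UPRE (TGACGTGG) and the ATF4 and CHOP composite site CARE (TGATGCAA). The Hspa5 window held ERSE from 65 to 47 bases before the RefSeq start. The Herpud1 window held ERSE-II from 52 to 42 bases and CARE, on the opposite strand, from 112 to 105 bases before the start. The other 7 windows held none of these letters, which says only that exact matches were not in the windows. Of 32851 windows of all genes, 0.119% held ERSE, 0.0365% ERSE-II, 0.676% UPRE and 0.895% CARE. The 30 bases of Hspa5 lie at chr2:34772020-34772049 and the 120 bases of Herpud1 at chr8:94386309-94386428, both on the plus strand of their chromosome. The GENCODE annotation used to name the genes starts Hspa5 earlier, at chr2:34771970. By that annotation the 30 bases lie inside the gene and not before its start. The fixed letters of a match are in capitals.
Hspa5: cttcaCCAATcggaggcctCCACGacgggg
Herpud1: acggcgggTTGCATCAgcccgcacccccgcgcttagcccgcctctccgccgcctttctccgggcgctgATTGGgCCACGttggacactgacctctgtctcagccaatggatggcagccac

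Library totals ran from 11845470 to 17284863 counts. Trex1 had 0 counts in all libraries, WT included. All 1147 of its exonic bases are shared with Atrip on the same strand, so its counts could not check the genotype. Macrophage markers were abundant throughout: 8 markers summed to between 31060 and 33420 counts scaled to library size (CPM), and none was at 0. Markers of other cells differed between WT and the 3 Trex1-KO groups. Stromal markers summed to 2250 to 2446 CPM in WT and 923.6 to 1289 CPM in the other libraries, whereas neutrophil markers summed to 8.68 to 9.64 CPM in WT, with Ly6g and Elane at 0, and 64.5 to 98.6 CPM elsewhere. In bulk RNA, fewer cells of a type and less RNA per cell cannot be told apart. A batch limited to the SN-011 libraries, whose treatment is described separately in the labels, cannot be told apart from SN-011 itself.

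Levels can be compared between genes only per length, as CPM divided by exonic length in kilobases (RPKM). In WT BMDMs, Hspa5, which encodes the ER Hsp70 chaperone BiP, was the most abundant member at 142.2 ± 5.97 RPKM (SD, n = 2). The transcription factors Atf4 and Xbp1 followed at 37.4 ± 2.84 and 34.3 ± 2.45 RPKM, a difference within their spread. Herpud1, which helps to assemble the ER degradation machinery, Dnajb9, an ER co-chaperone of BiP, and the sensor Ern1 did not differ beyond their spread, at 22.9 ± 1.62, 22.6 ± 0.112 and 21.3 ± 1.23 RPKM. Atf6 (14.0 ± 0.0381 RPKM) and Ddit3 (13.1 ± 2.41 RPKM) were likewise within their spread. The sensor Eif2ak3 stood at 7.80 ± 0.0907 RPKM. The lowest member was Trib3, a pseudokinase induced by ATF4 and CHOP, at 1.26 ± 0.256 RPKM.

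Loss of Trex1 was accompanied by modestly higher mRNA of 3 members, Hspa5, Atf6 and Ddit3, and by no lower member (edgeR quasi-likelihood test, FDR < 0.05 over 14591 genes). Of all tested genes, 16.4% were called in this comparison, 9.27% higher and 7.11% lower. The median log2 fold change was 0.109 over the 10 members and -0.002 over all tested genes. In the plot of levels by library, the Trex1-KO points of Hspa5, Atf6 and Ddit3 lie above both WT points, as do those of Ern1. With so few libraries per group, such separation can also arise by chance, and its share among all tested genes is not given. Here and in the values that follow, lack of overlap between groups is therefore a description, and the calls rest on the test alone.

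**Figure D1:**
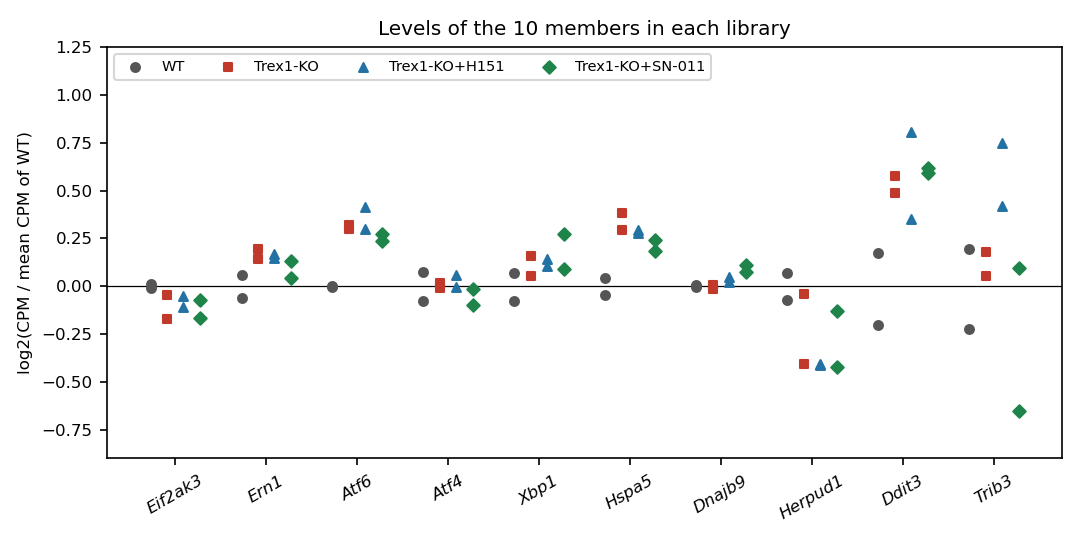
Levels of the 10 members in each of the 8 libraries, as log2 of CPM over the mean CPM of the 2 WT libraries (y axis), with genes ordered by role on the x axis, 1 point per library, and group shown by colour and shape. All 6 libraries without Trex1 lie above both WT libraries for Hspa5, Atf6 and Ddit3, and the Trib3 points are the most spread. The share of all tested genes that separate in this way is not given, so the separation is a description only.

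Among the sensors, Atf6 was the one that passed the test. Its level was 129.5 and 129.0 CPM in the WT libraries and 161.6 and 158.9 CPM in the Trex1-KO libraries. The groups did not overlap, and Atf6 rose by 0.31 ± 0.061 on the log2 scale (SE; 1.24-fold, adjusted p = 0.00285). Ern1 was also higher in both Trex1-KO libraries, at 199.3 and 192.5 against 167.2 and 181.5 CPM in WT, but the difference of 0.17 ± 0.063 did not pass (adjusted p = 0.0951). For Eif2ak3, the levels were 47.4 and 46.6 CPM in WT against 45.6 and 41.8 CPM in Trex1-KO, both below WT, with a difference of -0.11 (95% interval -0.28 to 0.07).

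The transcription factors downstream of PERK and IRE1α did not pass the test. Atf4 stood at 92.8 and 83.4 CPM in WT against 89.3 and 87.6 CPM in Trex1-KO, so that the Trex1-KO libraries fell between the WT libraries (log2 fold change 0.0058, 95% interval -0.15 to 0.16). Xbp1 stood at 117.0 and 105.7 CPM in WT against 124.4 and 115.6 CPM in Trex1-KO, and the groups overlapped (0.11, -0.06 to 0.27). For both genes the interval leaves room for a change of total mRNA no larger than 0.27 on the log2 scale in either direction, and spliced Xbp1 was not measured.

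Of the targets, the chaperone gene Hspa5 gave the smallest p. It stood at 619.2 and 583.5 CPM in WT against 782.9 and 737.0 CPM in Trex1-KO, without overlap, and rose by 0.34 ± 0.055 on the log2 scale (1.26-fold, adjusted p = 0.000632). Ddit3 stood at 19.6 and 25.4 CPM in WT against 31.5 and 33.6 CPM in Trex1-KO. It rose by 0.53 ± 0.147 (1.45-fold, adjusted p = 0.0237), but this call rested on single libraries: without WT replicate 1 the difference was 0.34 (adjusted p = 0.262), and without Trex1-KO replicate 2 it was 0.49 (adjusted p = 0.0928). Of the 1713 exonic bases of Ddit3, 10.9% overlap other annotated genes, among them Mars on the opposite strand. The methods of the study describe strand-specific library preparation, but the strand setting of the counting was not given in the sources used here. The calls of Hspa5 and Atf6 held in 11 of 11 alternative settings.

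The other targets did not pass the test. Dnajb9 was nearly the same in every library of the comparison, at 57.3 and 57.8 CPM in WT against 57.7 and 57.0 CPM in Trex1-KO (log2 fold change -0.005, 95% interval -0.15 to 0.14). Herpud1 stood at 56.2 and 50.8 CPM in WT against 52.0 and 40.3 CPM in Trex1-KO, a difference of -0.22 that did not pass (adjusted p = 0.274) but that passed without Trex1-KO replicate 1 (-0.42, adjusted p = 0.0379). Trib3 was measured from 31 to 45 counts per library in these groups, and its interval of -0.54 to 0.76 on the log2 scale is too wide to show a moderate change at this depth. The promoters shown earlier thus belong to 1 gene that rose and 1 that did not pass.

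**Figure D2:**
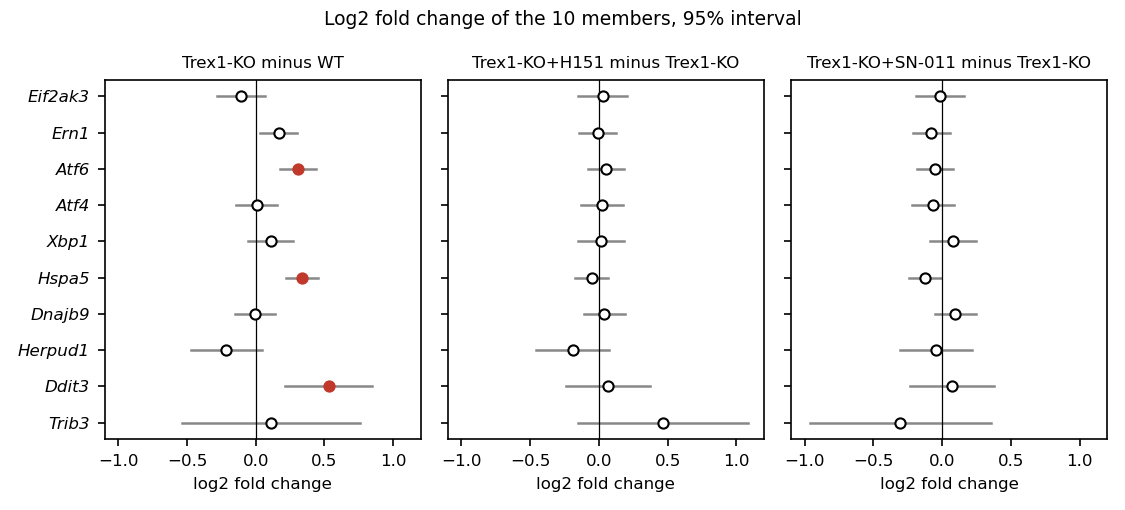
Log2 fold change (x axis) of each member in 3 comparisons, Trex1-KO minus WT (left), Trex1-KO+H151 minus Trex1-KO (middle) and Trex1-KO+SN-011 minus Trex1-KO (right), with lines for the 95% interval and filled red points for genes called at an FDR under 0.05. In the left panel Atf6 (0.31), Hspa5 (0.34) and Ddit3 (0.53) are filled, and no point is filled in the other 2 panels.

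With H151, no member passed the test against vehicle-treated Trex1-KO cells. The quasi-likelihood test called 0 of 10, with 0 at an unadjusted p under 0.05, and DESeq2 and edgeR's exact test also called 0. In the same comparison 2.23% of all tested genes were called, 1.84% as lower, and 9.36% had an unadjusted p under 0.05. The median over the members was 0.024, against 0.0012 over all tested genes. Hspa5 stood at 735.9 and 728.9 CPM with H151, just below the Trex1-KO libraries, a difference of -0.05 (95% interval -0.17 to 0.07). Atf6 stood at 172.5 and 159.1 CPM, overlapping Trex1-KO, with a difference of 0.05 (-0.08 to 0.18). Neither interval reaches a fall as large as the difference between Trex1-KO and WT, which was 0.34 for Hspa5 and 0.31 for Atf6. Ddit3 stood at 28.7 and 39.4 CPM with H151, on both sides of the Trex1-KO libraries (0.07, -0.24 to 0.38). The replicates of Ddit3 were further apart here than in any other group.

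The remaining members differed by 0.04 or less in either direction with H151, except for Herpud1 and Trib3. Herpud1 stood at 40.4 and 40.2 CPM, close to the lower Trex1-KO library (-0.19, -0.46 to 0.07). Trib3 was higher in both H151 libraries, at 4.48 and 3.56 CPM against 3.02 and 2.77 CPM in Trex1-KO, a difference of 0.47 whose interval ran from -0.15 to 1.09 (adjusted p = 0.733).

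With SN-011, the members again gave 0 calls in the quasi-likelihood test, DESeq2 and the exact test, in a comparison where 2.33% of all tested genes were called, 2.22% as lower. The only member at an unadjusted p under 0.05 was Hspa5, against 12.0% of all tested genes. Its level was 683.6 and 710.2 CPM, below both Trex1-KO libraries and above both WT libraries. The difference from Trex1-KO was -0.13 (95% interval -0.24 to -0.01; edgeR unadjusted p = 0.0393, adjusted p = 0.377). Atf6 stood at 152.4 and 156.4 CPM, also between the WT and Trex1-KO libraries, with a difference of -0.05 (-0.19 to 0.08). Ddit3 stood at 34.5 and 33.9 CPM, slightly above both Trex1-KO libraries (0.07, -0.23 to 0.38). Trib3 had the widest spread of any member here, at 2.85 and 1.70 CPM from 49 and 20 counts (-0.30, -0.96 to 0.36). The other 6 members differed by between -0.08 and 0.10. The median over the members was -0.049, against 0.0088 over all tested genes.

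H151 and SN-011 were also compared with each other, in 10 tests within a comparison that called 0.158% of all tested genes. No member was called by the quasi-likelihood test, DESeq2 or the exact test, and Trib3 was the only one at an unadjusted p under 0.05, against 8.91% of all tested genes. It was lower with SN-011 than with H151 in each library (log2 difference -0.77, 95% interval -1.41 to -0.14; edgeR unadjusted p = 0.021, adjusted p = 0.494). For Hspa5 the difference was -0.07 (-0.19 to 0.05), for Atf6 -0.10 (-0.23 to 0.03) and for Ddit3 0.0012 (-0.30 to 0.31).

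Against WT, Hspa5, Atf6 and Ddit3 were called higher in both antagonist-treated groups. These comparisons share the WT libraries with that of Trex1-KO and are not independent of it. With H151, Hspa5 was higher by 0.28 (adjusted p = 0.0034), Atf6 by 0.36 (adjusted p = 0.00141) and Ddit3 by 0.60 (adjusted p = 0.0157). Herpud1 was lower in the H151 group (-0.41, adjusted p = 0.0448), so that 4 of 10 members were called where 11.8% of all tested genes were (6.79% higher, 5.04% lower). The Herpud1 call was lost without any 1 of the 4 libraries concerned, with adjusted p from 0.0779 to 0.252. The Ddit3 call was lost without H151 replicate 2 (adjusted p = 0.155) or WT replicate 1 (adjusted p = 0.202), and the Hspa5 call without WT replicate 2 (adjusted p = 0.0581).

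With SN-011, Hspa5 was higher than in WT by 0.21 (adjusted p = 0.0207), Atf6 by 0.26 (adjusted p = 0.0135) and Ddit3 by 0.60 (adjusted p = 0.0148). That is 3 of 10 members in a comparison that called 11.7% of all tested genes (6.18% higher, 5.57% lower). The differences kept their direction in the alternatives, but the calls were fragile. Without WT replicate 1 or either SN-011 library no member was called, and without WT replicate 2 only 1 was. Hspa5 and Atf6 also failed when libraries were scaled by total counts only (adjusted p = 0.0998 and 0.0597).

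The rest of the pathway was followed through 174 further genes in 7 lists, of which 172 were tested. In Trex1-KO against WT, 11 of them rose and 16 fell, together 15.7%, which is close to the 16.4% called among all tested genes. The split depended on scaling. With total counts only, the rises of Ppp1r15b, Nck1, Sel1l, Syvn1 and Rpn2 were not called. Of all tested genes, 946 were then called higher and 1598 lower, against 1352 and 1038 in the main fit. The calls of Eif2ak2, Fkbp11, Edem1, Atf3, Atf5, Psat1, Phgdh, Mcl1 and Itpr1 held in 11 of 11 alternatives, and each of the others was lost without at least 1 of the 4 libraries. With either antagonist against Trex1-KO, 0 rose and 3 fell (1.74%), near the 1.84% (H151) and 2.22% (SN-011) of all tested genes called lower. Between the antagonists 0 were called by the quasi-likelihood test, with 15 at an unadjusted p under 0.05, as were 8.91% of all tested genes.

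**Figure D3:**
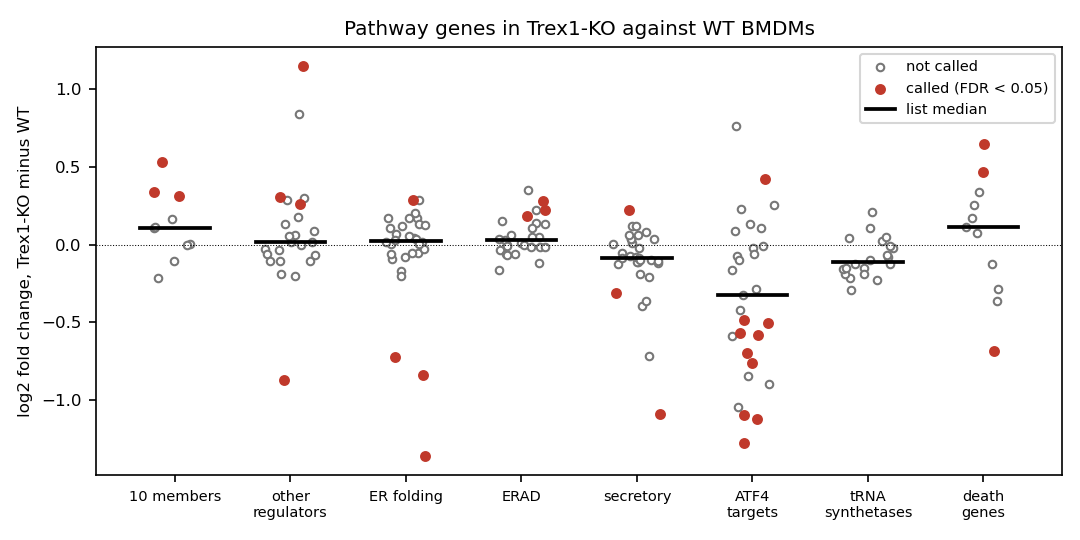
Log2 fold change in Trex1-KO minus WT (y axis) for the 10 members and the tested genes of the 7 pathway lists (x axis), 1 point per gene, filled red where called at an FDR under 0.05, with a bar at each list's median. The ATF4 targets have the lowest median, -0.33, and 9 red points below 0, while the red points of the ERAD list are all above 0.

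Other regulators of the response gave 3 genes that rose and 1 that fell, of 24 tested (16.7%, against 16.4% of all tested genes), with a list median of 0.016. The strongest was Eif2ak2, which encodes PKR, an eIF2α kinase that is activated by double-stranded RNA and induced by interferon. It stood at 85.3 and 71.2 CPM in WT against 174.2 and 171.9 CPM in Trex1-KO, and rose by 1.15 ± 0.094 (2.21-fold, adjusted p = 1.31e-06). It was lower with both antagonists, at 97.2 and 108.7 CPM with H151 (-0.75, adjusted p = 0.000321) and 95.4 and 111.9 CPM with SN-011 (-0.74, adjusted p = 0.000395). It thus moved with the antagonists where Eif2ak3, the kinase gene among the members, did not pass in any comparison. Ppp1r15b, a constitutive subunit of the eIF2α phosphatase, rose by 0.26 (adjusted p = 0.00895), and Nck1, an adaptor that modulates that pathway, by 0.31 (adjusted p = 0.0496), a call that held in 4 of 11 alternatives. Creb3l1, an ER-resident transcription factor of collagen-secreting cells, fell (-0.88, adjusted p = 0.0105).

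Of 30 ER folding genes tested, 1 rose and 3 fell (13.3%, against 16.4% of all tested genes), and the median was 0.024. Calr, which encodes the lectin chaperone calreticulin, rose by 0.28 ± 0.057 (adjusted p = 0.00292), from 523.5 and 488.7 CPM in WT to 625.0 and 608.1 CPM. The genes that fell were far less abundant. The peptidyl-prolyl isomerase gene Fkbp11 went from 3.90 and 3.52 CPM to 1.36 and 1.52 CPM (-1.36, adjusted p = 0.00621), the disulfide isomerase gene Pdia5 fell by 0.84 (adjusted p = 0.00959) and Fkbp14, an isomerase gene that acts on collagen, fell by 0.72 (adjusted p = 0.0275). Most stromal markers moved the same way, with 6 of 7 tested lower in Trex1-KO. Col1a1 stood at 949.3 and 862.3 CPM in WT against 484.0 and 376.5 CPM in Trex1-KO. Dcn did not fall, at 1.77 and 2.58 CPM in WT against 3.09 and 2.90 CPM in Trex1-KO. The part of stromal markers in the lower folding genes was not tested.

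ER-associated degradation (ERAD) genes, which carry misfolded proteins out of the ER for proteasomal destruction, gave 3 higher and 0 lower of 27 tested (11.1%, against 9.27% of all tested genes called higher), with a median of 0.032. Edem1, a mannosidase-like protein that marks misfolded glycoproteins, stood at 203.7 and 202.5 CPM in WT against 249.3 and 244.1 CPM in Trex1-KO (0.28 ± 0.059, adjusted p = 0.00446). Syvn1, the ubiquitin ligase HRD1, rose by 0.22 (adjusted p = 0.0397) and its partner Sel1l by 0.18 (adjusted p = 0.0383). These calls were lost in most alternatives, and held in 3 and 2 of 11. Secretory pathway genes gave 1 higher and 2 lower of 31 (9.68%, against 16.4% of all tested genes), with a median of -0.084. Rpn2, a subunit of the oligosaccharyltransferase, rose by 0.22 (adjusted p = 0.0229), whereas the KDEL receptor gene Kdelr3 fell by 1.09 (adjusted p = 0.00516) and the COPII coat gene Sec24d by 0.31 (adjusted p = 0.00931). The number of secretory genes called lower was 6 with total counts only, where 11% of all tested genes were called lower, and 0 without WT replicate 1, where 4.3% were. Most stromal markers were lower in the same libraries as Kdelr3, Sec24d and Creb3l1, and their part in these values was not tested.

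Among targets of ATF4, 9 of 29 tested fell, where 7.11% of all tested genes did, and 1 rose. The list median was -0.328, against -0.002 over all tested genes, and it was -0.547 without WT replicate 2 and -0.228 without WT replicate 1. Atf4 mRNA itself differed by 0.0058. Phgdh, the first enzyme of serine synthesis, fell by 1.28 ± 0.173 (adjusted p = 0.000142), from 13.8 and 12.3 CPM in WT to 6.11 and 4.68 CPM in Trex1-KO. Pycr1, an enzyme of proline synthesis, fell by 1.12 (adjusted p = 0.0219) and Ddit4, an inhibitor of mTORC1, by 1.10 (adjusted p = 0.0158).

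The other 6 that fell, named after their values were seen, were Psat1 of serine synthesis (-0.76), the amino acid transporter gene Slc7a5 (-0.70), Aldh18a1 of proline synthesis (-0.58), the asparagine synthetase gene Asns (-0.57), the transcription factor gene Atf5 (-0.50) and the translation repressor gene Eif4ebp1 (-0.48). Psat1 went from 22.6 and 18.7 CPM to 14.0 and 10.5 CPM. The number of ATF4 targets called lower was 3 without WT replicate 1 and 5 without Trex1-KO replicate 1, settings in which 4.3% and 5.2% of all tested genes were called lower. The libraries with lower Phgdh and Psat1 were also those in which most stromal markers were lower, and a link between them was not tested. The gene that rose was Atf3, a stress-induced transcription factor that is also an ATF4 target. It stood at 196.6 and 198.4 CPM in WT against 257.2 and 271.8 CPM in Trex1-KO (0.42 ± 0.056, adjusted p = 0.00013).

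**Figure D4:**
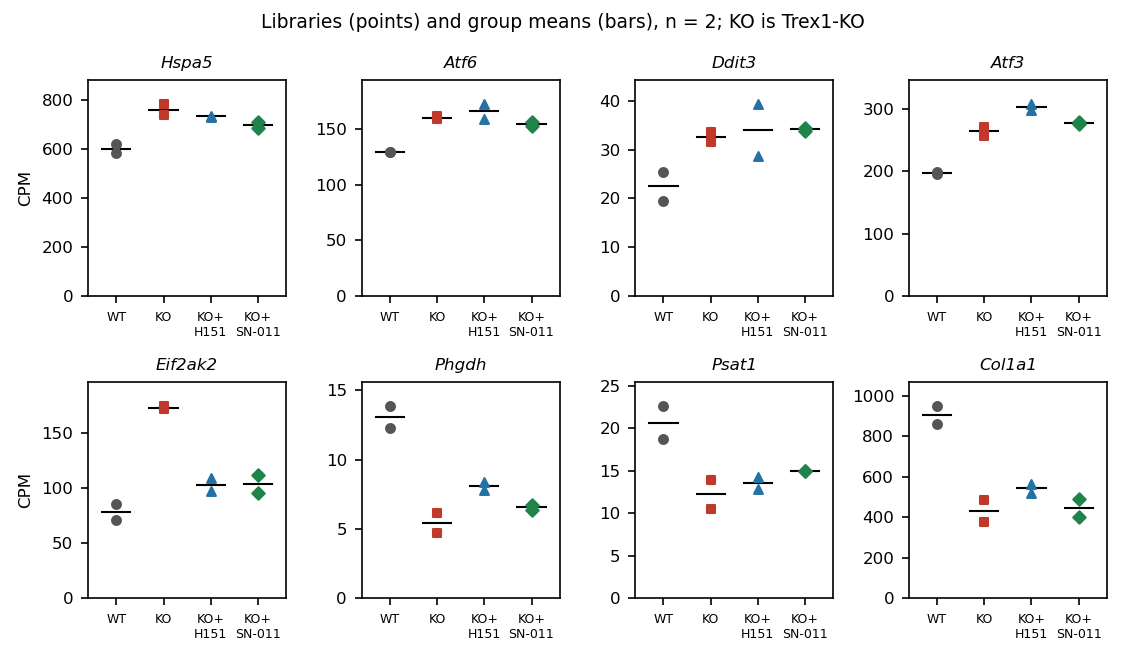
CPM (y axis, from 0) of 8 genes in each library (points) with the mean of each group of 2 (bars). Eif2ak2 is highest in the vehicle-treated Trex1-KO libraries (174.2 and 171.9 CPM), Hspa5, Atf6, Ddit3 and Atf3 are higher in all 3 Trex1-KO groups than in WT, and Phgdh, Psat1 and the stromal marker Col1a1 are lower in all 3.

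Genes for cytosolic tRNA synthetases, many of which are also ATF4 targets, gave 0 calls of 20 in the quasi-likelihood test, with 6 at an unadjusted p under 0.05, where 27.2% of all tested genes were, and a median of -0.111. With total counts only, 6 were called lower, as were 11% of all tested genes. Genes of ER stress-linked death gave 2 higher and 1 lower of 11 (27.3%, against 16.4% of all tested genes), with a median of 0.112. The ER calcium channel gene Itpr1 rose by 0.65 (adjusted p = 0.000372) and the anti-apoptotic gene Mcl1 by 0.47 (adjusted p = 2.65e-05). Tnfrsf10b, which encodes a death receptor known as a CHOP target, fell by 0.69 (adjusted p = 0.0487) while Ddit3 rose, but this call held in 6 of 11 alternatives.

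Besides Eif2ak2, the 2 pathway genes called lower with each antagonist were Mcl1 and Itpr1. Mcl1 fell from 1042 and 989.3 CPM in Trex1-KO to 819.7 and 862.9 CPM with H151 (-0.27, adjusted p = 0.0117) and to 823.0 and 846.0 CPM with SN-011 (-0.28, adjusted p = 0.00883), calls that held in 7 and 8 of 11 alternatives. Itpr1 fell by 0.57 with H151 (adjusted p = 0.00517) and by 0.42 with SN-011 (adjusted p = 0.0387), the latter a call that was lost without any 1 of the 4 libraries. None of the folding, ERAD, secretory, ATF4 target or tRNA synthetase genes was called with either antagonist. Phgdh stood at 7.82 and 8.40 CPM with H151 and at 6.40 and 6.71 CPM with SN-011, both above Trex1-KO and below WT. Atf3 stood at 299.2 and 308.2 CPM with H151 and at 275.7 and 278.6 CPM with SN-011, above Trex1-KO. As a reference for the antagonists in the same libraries, 8 interferon-induced genes gave sums that lay between 276.2 and 401.4 CPM for the WT libraries. The Trex1-KO sums lay between 1732 and 1901 CPM, those under H151 between 599.8 and 791.5 CPM, and those under SN-011 between 735.1 and 839.8 CPM. The 8 genes were each called higher in Trex1-KO against WT and lower with each antagonist.

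Against WT, the antagonist groups gave 11 higher and 8 lower pathway genes with H151, and 6 higher and 10 lower with SN-011. These were 11% and 9.3% of the tested pathway genes, near the 11.8% and 11.7% of all tested genes. Among the regulators, those called higher with H151 were Creb3l3, a Golgi-cleaved transcription factor related to ATF6 (1.18, adjusted p = 0.017), Eif2ak2 (0.40) and Mbtps2 (0.32), which encodes a protease that cleaves ATF6. Among folding, degradation and secretory genes, Calr (0.36), Pdia3 (0.22), Edem1 (0.29), Erlec1 (0.30), Rpn1 (0.27) and Rpn2 (0.24) were higher with H151, and Fkbp11 (-1.52), Pdia5 (-0.91), Txndc5 (-0.23), Kdelr3 (-1.05) and Sec24d (-0.28) were lower. With SN-011, Eif2ak2 (0.40), Calr (0.26), Edem1 (0.26) and Rpn2 (0.25) were higher, and Pdia5 (-0.99), Fkbp14 (-0.73), Txndc5 (-0.24), Kdelr3 (-1.24) and Sec24d (-0.34) were lower.

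The ATF4 targets called lower against WT were Phgdh (-0.68) and Psat1 (-0.60) with H151, and Pycr1 (0.499-fold), Phgdh (-0.99), Slc7a5 (-0.61) and Atf5 (-0.44) with SN-011. Atf3 was higher in both, by 0.62 and 0.49. Mcl1 was higher by 0.20 and 0.19, and Tnfrsf10b was lower in both (-0.81 and -1.03). Stromal markers were again lower in 6 of 7 tested in each of these comparisons. Their part in the comparisons with WT was not tested. Of the pathway calls against WT, those of Calr, Fkbp11 and Atf3 with H151 and of Atf3, Atf5 and Phgdh with SN-011 held in 11 of 11 alternatives, and each of the others was lost without at least 1 of 4 libraries.

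Across the 8 libraries, some members varied together, which is given as a description because the libraries share their group structure. Log2 CPM of Hspa5 correlated with Atf6 at a Pearson's r of 0.93 and with Ern1 at 0.82, and Atf6 with Ern1 at 0.84. Herpud1 went the other way, with r = -0.53 against Hspa5 and -0.70 against Atf6, and Atf4 was nearly unrelated to Atf6 (0.06). Among all tested genes, the patterns most like Hspa5 were those of Lilrb4a (0.995), Tiam1 (0.992) and Flrt2 (0.987). Those most like Atf6 were Flii (0.995), Ide (0.991) and Slc37a2 (0.991), those most like Ddit3 were Tmub1 (0.986), Ulk3 (0.973) and C730034F03Rik (0.967), and those most like Herpud1 were Gm40117 (0.979), Ssc5d (0.963) and Paip2b (0.955). None of these genes was in the pathway lists.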

How the data were processed

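Polyadenylated RNA of 8 BMDM libraries was sequenced by the authors, who trimmed reads with Trimmomatic, aligned them with hisat2 and counted uniquely mapped pairs with featureCounts. The submitters' processing notes name HISAT2, HTSeq and mm10, so the counter is uncertain. Versions, annotation and strand setting are not given in the sources used here. The deposited values are raw counts per Ensembl gene, without normalization. Overlapping genes may share or lose reads.

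Identifiers were named from GENCODE mouse release M21 (GRCm38), which held 54495 of 54532. Tests used edgeR 4.0.16 under R 4.3.3. The filter was filterByExpr (minimum count 10, total 15). TMM factors (0.973 to 1.04) were applied, and all 8 libraries entered 1 quasi-likelihood fit. Each of 6 contrasts was tested by the two-sided F-test with Benjamini-Hochberg adjustment over 14591 genes at an FDR of 0.05. "Called" means past that threshold. SEs were obtained by dividing the size of each log2 fold change by the root of its F statistic, and are approximate. The 95% intervals use the same SE and the fit's degrees of freedom. The script was tested on simulated data.

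One count was worth 0.0579 to 0.0844 CPM, and reads carried no molecular identifiers, so counts are not independent molecules. Groups came from sample titles. All 10 members were named in every comparison, with up to 3 rising and 3 falling called genes per list, and the 3 genes of highest r for each called member. The members and lists were chosen with earlier results of these data known. Alternatives were DESeq2 1.42.0 with its size factors, scaling by total counts, 2 other filters, fits of 2 groups only, the exact test, a replicate block and leaving out each library. Promoter sequences are from RefSeq (GRCm38.p6).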

Additional observations from a re-analysis of the deposited data

How the results depend on the processing

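The number of members called in Trex1-KO against WT was 3 in every alternative that kept all libraries and 2 to 4 when single libraries were left out. The counts of 0 for H151 or SN-011 against Trex1-KO and for SN-011 against H151 were 0 in all alternatives run. Against WT, 4 members were called with H151 (2 to 3 when single libraries were left out). With SN-011 against WT, 3 were called, 1 with total counts only, and 0 to 1 when single libraries were left out. Herpud1 was called lower with SN-011 against WT when only the 2 groups were fitted (-0.27, adjusted p = 0.0404) and by edgeR's exact test (-0.27, adjusted p = 0.0264). The number of ATF4 targets called lower in Trex1-KO was 6 with DESeq2 and 10 with total counts only. In these settings 5.24% and 11% of all tested genes were called lower. No direction of a called value reversed. Of all genes, 1352 were called higher and 1038 lower in Trex1-KO, against 946 and 1598 with total counts only, when the median of all genes was -0.087. The causes of these shifts were not tested. With a library left out, the lone sample of its group is assumed to vary like the others. With 2 libraries per group and Trib3 at 20 to 55 counts, moderate changes of Trib3 were below what could be shown.

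The replicate numbers are shared by all groups, but the labels do not say what they stand for. With the replicate block the members called stayed at 3 for Trex1-KO against WT, 0 for each comparison among Trex1-KO groups, 4 for H151 and 3 for SN-011 against WT. Over all genes the block gave 2611 calls in Trex1-KO against WT (2390 without it) and 44 in SN-011 against H151 (23 without it). When the group mean was subtracted, libraries with the same number correlated at 0.194 between Trex1-KO and H151 and between -0.016 and 0.061 for the other pairs of groups.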
